A study of Homo sapiens with 8 samples.

Results

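The carbonic anhydrases examined here are 8 genes (CA2, CA5B, CA8, CA9, CA11, CA12, CA13 and CA14), chosen by symbol from the 43682 gene symbols in the RNA count files. They were measured in UM-RC-2, an established line of clear cell renal cell carcinoma that carries a VHL mutation per the labels. RNA came from 4 libraries, 2 of cells that stably expressed VHL and 2 of cells that carried a construct named VEC. Both kinds of cell were made by lentiviral infection and selection with blasticidin at 10 µg/ml, and both keep the mutant VHL gene of the line. Whether the replicates came from separate cultures, and whether the lines are pools or clones, is not stated in the labels. The p-values therefore rest on variation among these libraries, which may be technical. That variation is estimated largely across genes, not for each gene alone. Of the 8 genes, 5 (CA2, CA8, CA9, CA12 and CA13) passed the filter on low counts, and CA5B, CA11 and CA14 had at most 11 counts in any library.

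Carbonic anhydrases interconvert carbon dioxide and water with bicarbonate and a proton, and so set pH on either side of a membrane. CA9, CA12 and CA14 are anchored in the plasma membrane with the catalytic domain outside the cell. CA2 and CA13 are cytosolic enzymes, CA5B works in mitochondria, and CA8 (cytosolic) and CA11 (secreted) belong to the related proteins that lack the catalytic activity. VHL is the substrate-recognition part of a ubiquitin ligase that tags hypoxia-inducible factor alpha subunits for proteasomal breakdown. CA9 is a textbook target of these factors and is widely used as a marker of VHL-deficient renal carcinoma. CA12 is also known as a hypoxia-linked gene.

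The promoters of CA9 and CA12 are printed because these were the members that fell with VHL. They come from RefSeq on GRCh38.p14, whose promoter table held 4 of the 8 members (CA5B, CA9, CA12 and CA14), and each shows the 250 bases before the listed start, 5′ to 3′ on the strand of the gene. Capitals mark the core letters bound by hypoxia-inducible factors, ACGTG or GCGTG, which appear as CACGT or CACGC where they lie on the other strand. CA9 lies on the plus strand at chr9:35673678-35673927 and CA12 on the minus strand at chr15:63381847-63382096.
CA9: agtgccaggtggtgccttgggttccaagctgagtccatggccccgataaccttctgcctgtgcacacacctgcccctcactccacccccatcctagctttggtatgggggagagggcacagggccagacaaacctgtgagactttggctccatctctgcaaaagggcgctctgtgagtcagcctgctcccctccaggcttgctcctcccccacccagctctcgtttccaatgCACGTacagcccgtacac
CA12: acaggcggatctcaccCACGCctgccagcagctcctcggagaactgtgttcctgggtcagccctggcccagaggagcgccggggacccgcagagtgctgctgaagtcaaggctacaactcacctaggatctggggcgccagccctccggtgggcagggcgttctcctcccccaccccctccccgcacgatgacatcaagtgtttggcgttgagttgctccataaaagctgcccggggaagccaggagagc
The CA9 window held 1 ACGTG, on the other strand, from 18 to 14 bases before the start. The CA12 window held 1 GCGTG, also on the other strand, from 234 to 230 bases before the start. CA5B held 6 GCGTG, all on its own strand, and CA14 held neither motif. The CA5B transcript had at most 2 counts in a library, a value that is uncertain for reasons given below. No matches overlapped. Over 35116 promoters of the same length, ACGTG on either strand was present in 18.5%, GCGTG in 32.2% and at least 1 of the motifs in 43.2%. These matches describe letters in a window and do not show binding.

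Libraries held between 16230291 and 50027348 counts. They separated by replicate number before group: with log2(CPM + 1) over 21673 genes, r (Pearson) was 0.991 and 0.978 for VEC and VHL of the same number, against 0.504 for the pair of VEC libraries and 0.534 for the pair of VHL libraries. CPM gives counts relative to a library size scaled by TMM. Both replicate 2 libraries had 25.0% to 31.3% of their counts on pseudogenes, against 1.40% to 2.09% in replicate 1, and 2561 genes had 0 counts in both replicate 1 libraries but over 100 in both replicate 2 libraries. Each change was therefore read within a pair of the same number, then in edgeR's quasi-likelihood fit with the replicate number as a term (the blocked fit), and in the fit with group alone. The VHL transcript was more abundant in the VHL libraries, with 37.1 CPM against 146 in pair 1, and 88.9 against 151 in pair 2. Its counts do not separate the introduced transcript from that of the line. All 9 kidney epithelial markers examined had over 10 counts in each library. Their summed level was 3420 and 1604 CPM in the VEC libraries and 2081 and 1113 in the VHL libraries, and 6 of the 9 were lower in VHL in both pairs, as were 25% of all tested genes, while CDH6 was higher in both. CUBN, a proximal tubule receptor gene, fell (log2 change -1.94 ± 0.24, SE, blocked edgeR adjusted p = 1.99e-13). Its partner receptor gene LRP2, which made up most of the sum, was 1.73-fold lower in pair 1 and 1.63-fold lower in pair 2. LRP2 was not called in the blocked fit (adjusted p = 0.201, edgeR), but was with DESeq2 size factors (adjusted p = 0.00693, edgeR), with protein-coding genes alone (0.00358) and in DESeq2 (2.10e-26). The part of these markers in the results below was not tested. Of 5 endothelial markers, PECAM1, CDH5, KDR and VWF had 0 counts in all libraries, and the 5 fibroblast markers summed to at most 1.62 CPM. The 5 leukocyte markers summed to 17.6 and 43.9 CPM in VEC and to 11.7 and 38.5 CPM in VHL, with CD3E at 0 throughout and CD68 the single marker of the 5 over 10 counts in every library.

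**Figure D1:**
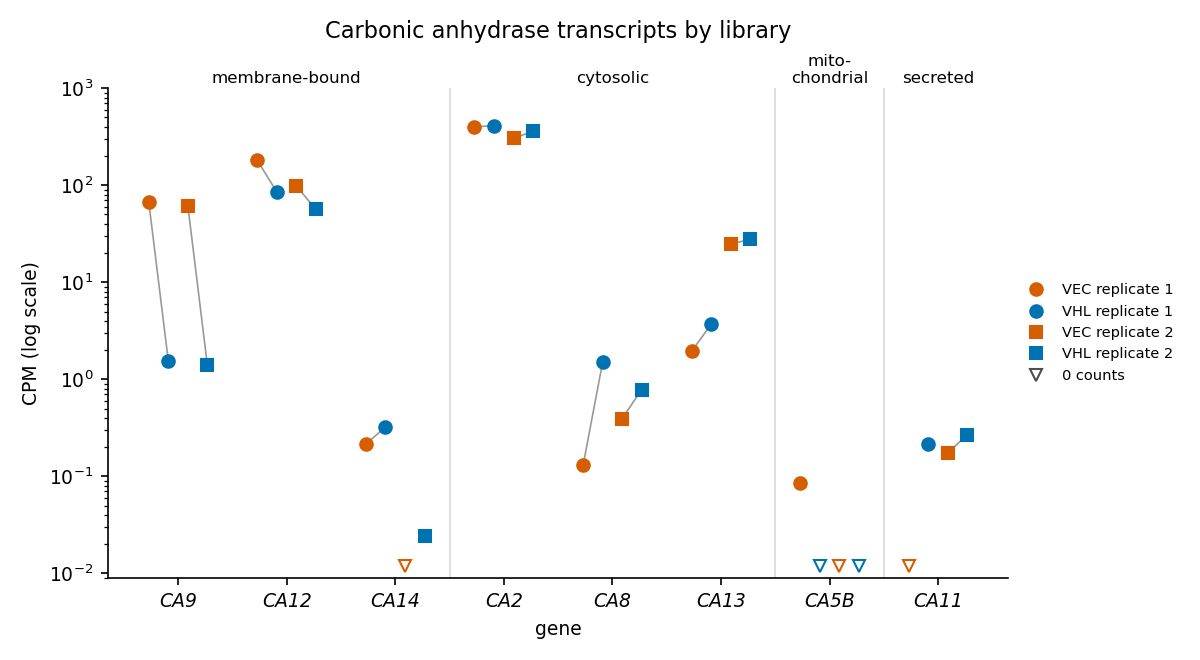
Level of each of the 8 carbonic anhydrase genes in CPM (log axis) in the 4 libraries, with lines joining VEC to VHL of the same replicate number and open triangles for libraries with 0 counts. CA9 drops from 67.5 and 61.8 CPM to 1.55 and 1.40, CA12 is lower in VHL in both pairs, and CA2 stays between 304 and 413 CPM.

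CA9 fell steeply in cells expressing VHL, to about the same level in both pairs. Replicate 1 held 1562 counts with VEC and 29 with VHL, and replicate 2 held 2820 and 57. This corresponds to 67.5 and 1.55 CPM in the replicate 1 pair, and to 61.8 and 1.40 CPM in the replicate 2 pair. Both VEC libraries lay far above both VHL libraries, and the 2 libraries of each group lay close together although the transcriptomes of the replicates differed widely. The level in VHL was 43.4-fold lower in pair 1 (95% counting interval 30.1 to 65.03) and 44.3-fold lower in pair 2 (34.1 to 58.7). On totals over protein-coding genes the pairs were further apart, at -5.29 and -5.59 on the log2 scale against -5.38 and -5.41. That scaling left the median change of all tested genes in pair 2 at -0.19. The counting intervals are exact for the ratio of 2 counts and cover counting error only. CA9 was still detected in VHL cells, where 29 and 57 counts stand against a detection limit of 3 counts, equal to 0.161 and 0.0734 CPM. The blocked fit gave a log2 change of -5.45 ± 0.29 (SE, 4 libraries, adjusted p = 2.04e-76, edgeR), the smallest p of all 24417 genes tested and the fifth largest fall. That fit left 1 residual degree of freedom, so its SE and p rest mostly on spread shared across genes, not on CA9 alone. With group alone the change was -5.45 ± 0.72 (unadjusted p = 0.00264, edgeR), which ranked first by p but was not called (adjusted p = 0.999991, edgeR).

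CA12, the other membrane-bound member that was tested, fell by about a log2 unit. In replicate 1 it stood at 181 CPM with VEC and 85.3 with VHL (4180 and 1592 counts). In replicate 2 it stood at 97.9 and 56.5 CPM (4467 and 2306 counts). Both VHL libraries lay under both VEC libraries, but the lower VEC value, 97.9, was near the higher VHL value, 85.3, because both replicate 1 libraries were above their replicate 2 partners. The fall was 2.12-fold in pair 1 (95% counting interval 2.00 to 2.24) and 1.73-fold in pair 2 (1.65 to 1.83), so the pairs differed in size by more than their counting error under this scaling. On totals over protein-coding genes the pairs were alike, at -0.99 and -0.98 on the log2 scale. That scaling left the median change of all tested genes in pair 2 at -0.19, so this likeness depends on the scaling. The blocked fit gave -0.94 ± 0.22 (adjusted p = 0.00173, edgeR), rank 282 by p among all genes. With group alone it was -0.97 ± 0.59, not called (unadjusted p = 0.181, edgeR). In RefSeq of GRCh38.p14, 2 long noncoding genes overlap CA12, and their reads could not be told from those of CA12 if they were counted without strand. Counts come from whole cultures, so less RNA per cell and fewer cells with the transcript cannot be told apart.

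CA14, the third membrane-bound member, was at the limit of detection. Replicate 1 held 5 counts with VEC and 6 with VHL, and replicate 2 held 0 and 1. No change could be read from it at this depth. CA9 and CA12 were thus the membrane-bound members with a measurable level.

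The cytosolic members did not pass the threshold in the blocked fit. CA2, a fast and widely expressed isozyme, was at 399 CPM with VEC and 413 with VHL in the first pair (9238 and 7706 counts) and at 304 and 362 CPM in the second (13845 and 14770 counts). The groups overlapped, since the VHL library of replicate 2 lay under the VEC library of replicate 1. The ratio of VHL to VEC was 1.04 in pair 1 (95% counting interval 1.00 to 1.07) and 1.19 in pair 2 (1.16 to 1.22). On totals over protein-coding genes the log2 changes were 0.14 in pair 1 and 0.06 in pair 2, against 0.05 and 0.25. The blocked log2 change was 0.15 ± 0.25 (adjusted p = 0.945, edgeR). Part of the CA2 count is uncertain, because the antisense gene CA3-AS1 overlaps it in RefSeq and whether the counting used strand is not stated. CA3-AS1 itself had 127 (VEC) and 112 (VHL) counts in pair 1, and 312 and 360 in pair 2, few beside those of CA2.

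CA13 differed far more between replicate numbers than between groups. Replicate 1 held 45 counts with VEC and 69 with VHL, but replicate 2 held 1132 and 1131. In CPM these are 1.94 and 3.70 for pair 1, with 24.8 and 27.7 for pair 2. The VHL library of replicate 1 lay under the VEC library of replicate 2, so the groups overlapped. The ratio of VHL to VEC was 1.90 in pair 1 (95% counting interval 1.29 to 2.83) and 1.12 in pair 2 (1.03 to 1.21), and the direction in pair 2 turned when totals over protein-coding genes were used (log2 change -0.03 against 0.16). The blocked log2 change was 0.45 ± 0.29 (adjusted p = 0.596, edgeR).

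CA8, a catalytically inactive member best known as a partner of the inositol trisphosphate receptor in the cerebellum, had few counts. Replicate 1 held 3 with VEC and 28 with VHL, and replicate 2 held 18 and 32. In CPM the VEC libraries stood at 0.130 and 0.395, under both VHL libraries at 1.501 and 0.783. The ratio of VHL to VEC was 11.6 in pair 1 (95% counting interval 3.58 to 59.5) and 1.99 in pair 2 (1.08 to 3.76). The blocked log2 change was 1.92 ± 0.71 and was not called (adjusted p = 0.136, edgeR). When protein-coding genes alone were tested, the blocked value was 1.84 and passed the threshold (adjusted p = 0.0388, edgeR), so the call rests on which genes were tested and on few counts.

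The mitochondrial and secreted members were close to undetected. CA5B had 2 counts in VEC of replicate 1 and 0 in each of the other libraries, where a count of 0 allows up to 0.161 (VHL replicate 1), 0.0658 (VEC replicate 2) and 0.0734 CPM (VHL replicate 2). Its value is uncertain, since the pseudogene CA5BP1 is a partial copy of it and how reads matching both were handled is not stated. CA5BP1 counts were 134 with VEC and 145 with VHL in pair 1, and 101 and 42 in pair 2. It moved in opposite directions in the pairs, with log2 changes of 0.42 and -1.06, and was not called (blocked adjusted p = 0.927, edgeR). A readthrough gene listed as CA5BP1-CA5B overlaps CA5B in RefSeq. It had 36 and 6 counts in replicate 1 and 24 in both libraries of replicate 2. How reads shared by CA5B and the readthrough gene were counted is not stated, so the low CA5B counts may not show its level. CA11 counts were 0 with VEC and 4 with VHL in pair 1, and 8 and 11 in pair 2, and the counting intervals of both ratios included no change. The comparison of CA9 and CA12 with a mitochondrial member could therefore not be made.

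**Figure D2:**
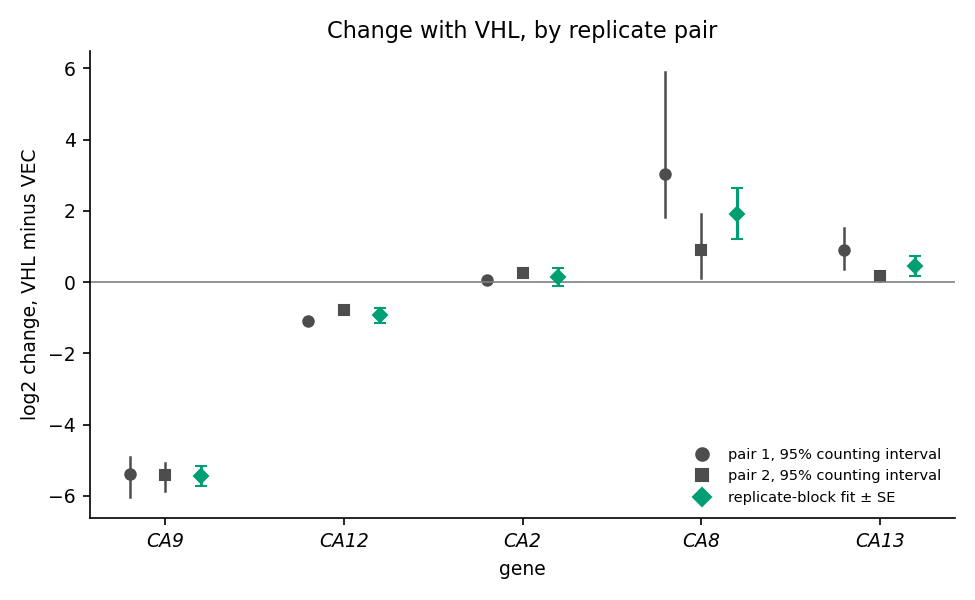
Log2 change (VHL minus VEC) of the 5 tested members in each replicate pair, with exact 95% counting intervals, and in the blocked fit with its SE. CA9 sits near -5.4 in both pairs and CA12 near -1, while CA2 is near 0 and the intervals of CA8 are wide.

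As a group, 2 of the 5 tested members were called in the blocked fit, both lower in VHL, where 3.1% of all tested genes were called 2.35% called lower and 0.749% called higher. With 5 genes this is a description. CA9 and CA12 also had both VHL libraries under both VEC libraries, as did 3.39% of all tested genes. CA8 had both VHL libraries above both VEC libraries, as did 4.47% of tested genes. The 3 cytosolic members were higher in VHL in both pairs, a pattern present in 30.5% of tested genes that CA13 loses on totals over protein-coding genes. With group alone, edgeR called 0 of 24417 genes (0%), 22 of them had an unadjusted p under 0.05, and CA9 was the single member among the 22. DESeq2's Wald test with group alone called 6 genes, of which CA9 was the single member.

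The ratio of 2 transcripts within a library needs no scaling between libraries, and it set CA9 and CA12 directly against the cytosolic members. Log2 ratios of counts were taken after adding 2 to each. CA9 to CA2 stood at -2.56 and -2.29 in VEC and at -7.96 and -7.97 in VHL, in the order of replicate 1 then 2. The ratio was thus tightly grouped in both groups, and it moved by -5.40 in pair 1 and by -5.67 in pair 2. CA9 to CA13 went from 5.06 to -1.20 in replicate 1 and from 1.32 to -4.26 in replicate 2. Its level differed by replicate number, and it moved down in both pairs, by -6.25 in pair 1 and -5.58 in pair 2. CA9 to CA8 moved by -8.24 and -6.35, on the few counts of CA8.

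CA12 shifted less against the same genes. CA12 to CA2 went from -1.14 to -2.27 in replicate 1 and from -1.63 to -2.68 in replicate 2, a change of -1.13 and -1.05 in the pairs. The groups did not overlap, and the pairs were closer to each other than in CPM. CA12 to CA13 changed by -1.99 and -0.95, with groups that overlapped because of the replicate difference in CA13. CA12 to CA8 changed by -3.98 and -1.72. CA9 also fell against CA12 itself, from -1.42 to -5.68 in replicate 1 and from -0.66 to -5.29 in replicate 2.

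These 7 ratios were tested with an exact permutation test over the 4 libraries (two-sided). With 2 libraries against 2, this exact test cannot go under p = 0.333, and 6 of the 7 ratios reached that value (adjusted p = 0.389 over the 7, Benjamini-Hochberg). CA12 to CA13 gave an exact p of 0.667. This test, which does not use the replicate numbers, thus cannot place a difference past the threshold at this size, and CA12 to CA13 fell in both pairs despite its p. As a measure of size, the difference between the blocked log2 changes was -5.60 ± 0.38 for CA9 and CA2, -1.09 ± 0.33 for CA12 and CA2, and -4.52 ± 0.36 for CA9 and CA12. The SE of these differences treats the genes as independent.

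**Figure D3:**
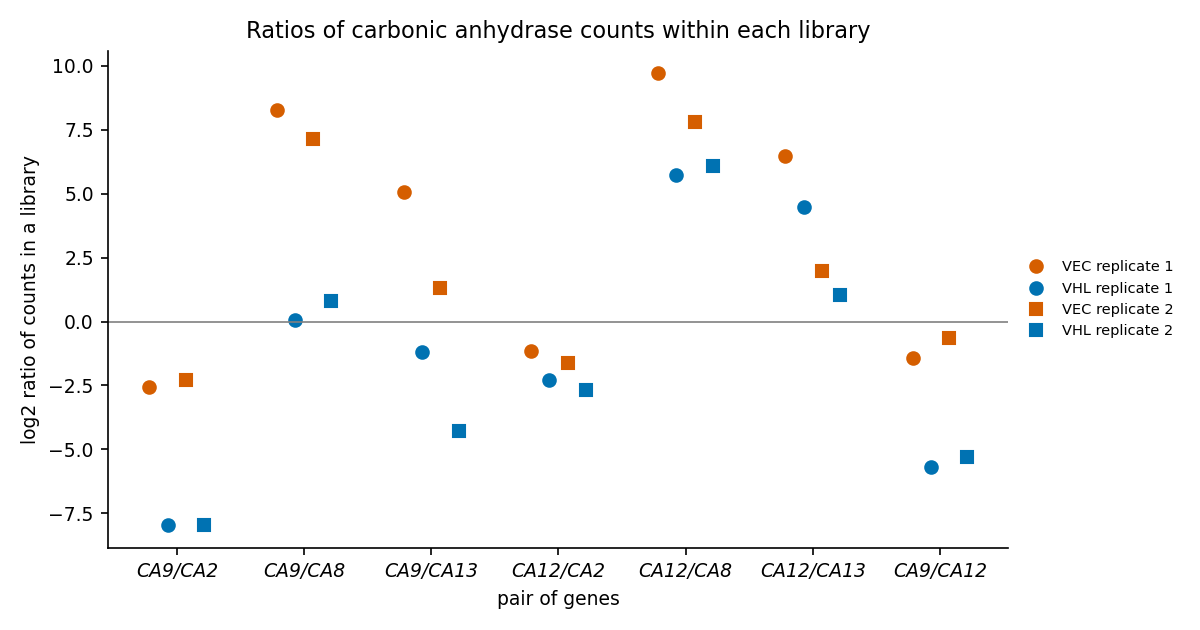
Log2 ratio of the counts of 2 carbonic anhydrase genes in each of the 4 libraries. For CA9/CA2 the VEC libraries sit at -2.56 and -2.29 and the VHL libraries at -7.96 and -7.97, while CA12/CA13 differs more by replicate number than by group.

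The other carbonic anhydrase symbols had low counts. Of 7 (CA1, CA3, CA4, CA5A, CA6, CA7 and CA10), 2 passed the filter and none was called. CA6, CA7 and CA10 had 0 counts in every library. CA5A, a mitochondrial isozyme of liver, had 3 counts in each replicate 1 library, and 78 in VEC and 42 in VHL of replicate 2 (blocked adjusted p = 0.912, edgeR). CA1, the abundant red cell isozyme, had 0 counts in replicate 1 and 18 and 16 in replicate 2 (blocked adjusted p = 0.9996, edgeR). Both show the replicate difference described above, and neither had more than 3 counts in a replicate 1 library. CA3 had at most 4 counts in any library. CA4, another membrane-anchored isozyme, had 2 counts with VEC and 11 with VHL in pair 1, a ratio of 6.82 (95% counting interval 1.49 to 63.4), but 0 in both libraries of pair 2, and it did not pass the filter.

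Carbonic anhydrases work with transporters that carry bicarbonate, protons and lactate across membranes, and 75 such genes were examined, of which 59 were tested. In the blocked fit 4 were called, 2 lower and 2 higher in VHL (6.78%, against 3.1% of all tested genes). Their median blocked log2 change was 0.03, against -0.03 over all genes tested. By list, 1 of 8 SLC4 bicarbonate transporters and 1 of 7 SLC26 anion exchangers were called higher. One called lower came from 5 genes of monocarboxylate transport and one from 23 V-ATPase genes. None was called among 9 sodium-proton exchangers, 3 proton-sensing receptors, 2 other pumps and channels, and the 2 receptors with a carbonic anhydrase-like domain.

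The genes that fell were ATP6V1F and SLC16A3. ATP6V1F encodes a subunit of the cytoplasmic domain of the vacuolar proton pump. Its level went from 62.3 to 29.8 CPM in pair 1 and from 25.6 to 11.6 CPM in pair 2, with a blocked log2 change of -1.11 ± 0.22 (adjusted p = 0.000116, edgeR). The replicates differed in level, but the fall was 2.09-fold and 2.21-fold in the pairs. SLC16A3, the lactate exporter MCT4, went from 83.8 to 52.0 CPM and from 24.8 to 13.0 CPM (-0.80 ± 0.22, adjusted p = 0.0111, edgeR). For both genes the VHL library of replicate 1 lay above the VEC library of replicate 2, so the groups overlapped and the fall is seen within pairs.

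The genes that rose were SLC26A2 and SLC4A7. SLC26A2, a sulfate and anion exchanger, went from 78.4 to 129 CPM and from 80.4 to 142 CPM, with no overlap of the groups (0.77 ± 0.22, adjusted p = 0.0222, edgeR). SLC4A7, a sodium bicarbonate cotransporter, went from 107 to 130 CPM and from 44.3 to 99.99 CPM (0.73 ± 0.22, adjusted p = 0.0341, edgeR). The groups overlapped, and the rise was 1.22-fold in pair 1 and 2.26-fold in pair 2, and DESeq2 with the same block did not call it (adjusted p = 0.157).

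SLC26A2, called above, was also the most abundant gene of the SLC26 list. The most abundant gene of each list other than SLC26 was not called. SLC4A4, the basolateral sodium bicarbonate cotransporter of the proximal tubule, was at 2946 and 2360 CPM in replicate 1 and at 1269 and 1361 in replicate 2, in the order VEC then VHL (blocked adjusted p = 0.980, edgeR). SLC16A1, the lactate transporter MCT1, was at 682 and 550 CPM, and at 553 and 573 CPM (blocked adjusted p = 0.960, edgeR). Neither moved in 1 direction in both pairs. The proton pump gene ATP6V1C1 had a blocked log2 change of 0.11 ± 0.25 and the receptor-type phosphatase gene PTPRG one of 0.31 ± 0.21. SLC9A4 had 0 counts in both replicate 1 libraries and 6157 and 4758 in replicate 2, so its level rests on the replicate 2 pair. The proton-sensing receptor GPR132 showed the same split, with 4 counts in each replicate 1 library and 446 and 392 in replicate 2. HVCN1, the voltage-gated proton channel, had at most 19 counts in a library.

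**Figure D4:**
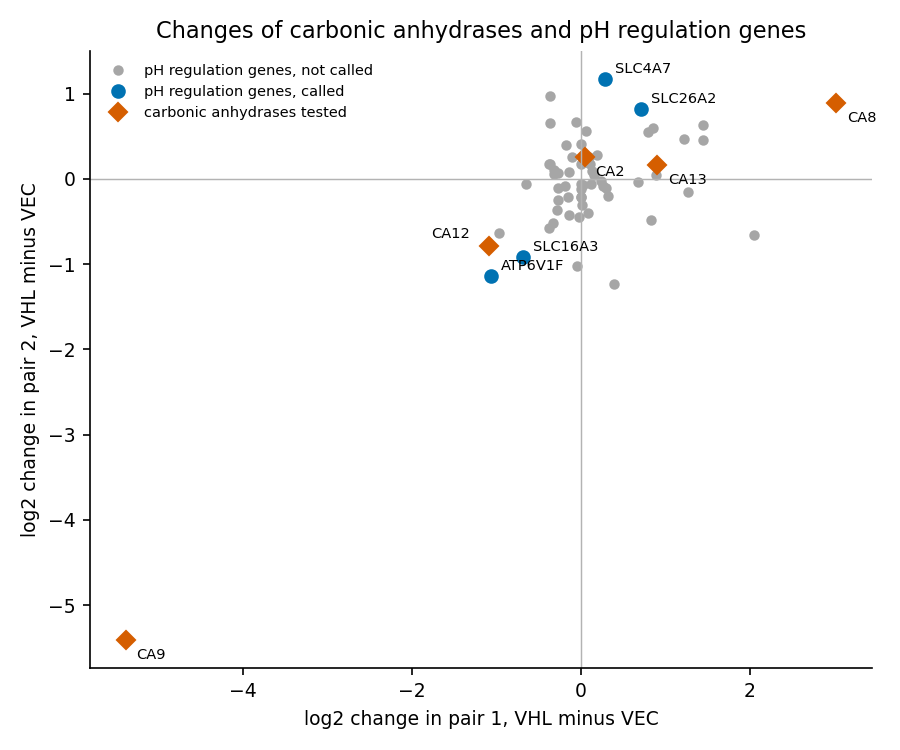
Log2 change (VHL minus VEC) in pair 1 against pair 2 for the 5 tested carbonic anhydrases and the 59 tested pH regulation genes, with called genes named. CA9 lies alone near -5.4 on both axes, CA12 lies beside SLC16A3 and ATP6V1F near -1, and most pH regulation genes scatter around 0.

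Genes with the pattern most like that of CA9 were sought over the 4 libraries, by Euclidean distance between log2 CPM values centred on the mean of each gene. The nearest 5 of 24417 tested genes were POU3F3, UBE2QL1, TMEM45A, STC1 and DNAH11, at distances of 0.99 to 1.88. They were chosen for likeness over 4 points. In the VHL libraries UBE2QL1 stood at 0.161 and 0.147 CPM and TMEM45A at 0.268 and 0.0734 CPM. These values are at or near the detection limit of 3 counts, so the distances of both genes depend on the prior count. POU3F3, a POU-domain transcription factor gene, went from 21.9 to 0.804 CPM and from 16.9 to 0.857 CPM. STC1, which encodes the secreted hormone stanniocalcin, went from 46.4 to 1.45 and from 29.4 to 2.33 CPM. DNAH11, an axonemal dynein gene, had changes of -5.07 and -4.51 in the pairs but a level in VEC of 187 CPM in replicate 1 against 41.6 in replicate 2.

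For CA12 the nearest genes were TMCC1, ORAI3, LINC02615, PPP1R3C and MPND, at distances of 0.11 to 0.15. TMCC1 went from 194 to 92.3 CPM in pair 1 and from 96.3 to 58.8 in pair 2 (blocked -0.89 ± 0.22, adjusted p = 0.00381, edgeR). PPP1R3C, a glycogen-targeting subunit of protein phosphatase 1, went from 93.9 to 42.4 and from 45.9 to 29.9 CPM (-0.88 ± 0.21, adjusted p = 0.00286, edgeR). ORAI3, a calcium channel subunit gene, had a blocked change of -0.95 ± 0.26 (adjusted p = 0.0150, edgeR). LINC02615 and MPND had under 2 CPM in every library and were not called. The pattern these genes share with CA12 has both a fall with VHL and a higher level in replicate 1, and it was chosen for likeness over 4 points.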

How the data were processed

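RNA-seq of 2 VEC and 2 VHL libraries of UM-RC-2 was analysed, grouped by title. Per the file headers, the deposited values are raw counts per gene symbol from alignments to hg19, and the names of the replicate 2 alignments have another form than those of replicate 1. The aligner, counting program, annotation, strand setting and treatment of multiply mapping reads are not given in the sources used here. H3K27ac comparison tables give no region positions and were not used.

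The tests used edgeR 4.0.16 in R 4.3.3 (filterByExpr, TMM, glmQLFit and glmQLFTest, two-sided) on 24417 of 43682 symbols, with Benjamini-Hochberg adjusted p under 0.05 as a call. The main model had group as its only term, and the blocked fit added the replicate number. SE was derived from the log2 change and its F statistic. Changes within pairs are differences in log2 CPM (prior count 2), and counting intervals are exact conditional (Clopper-Pearson) at 95%. DESeq2 1.42.0 was an alternative. Both fits were tried on simulated data in which 200 of 24075 genes were given a log2 change of 2. The model with group alone detected 0 of these 200 genes. The lack of a call in that model therefore does not show the lack of a change of this size. With the replicate number added, 198 of the 200 were detected, and 9 unchanged genes were called in error. The simulation built in the replicate difference and the same spread for every gene, and changed only well-counted genes. It therefore does not give the detection of smaller changes or of genes with few counts, nor the rate of false calls in the real libraries. RefSeq of GRCh38.p14 gave gene classes and overlaps (97.9% of symbols matched) and promoters. Transcript lengths were not available. The most abundant gene of each list was therefore taken by mean CPM without correction for length, and levels of different genes were not otherwise ranked.

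Same-numbered libraries deviated together (r = 0.982 across genes), which the labels do not explain, so the blocked fit is printed beside the other. The members and lists were chosen with earlier results of these data known. Named genes were all members, pH regulation genes called in the blocked fit with 1 sign in both pairs (up to 12), the most abundant gene of each list, and the 5 genes nearest to CA9 and to CA12. The ratios to CA5B that had been planned were not computed, because CA5B had at most 2 counts. The ratio of CA9 to CA12 was added after the data were seen.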

Additional observations from a re-analysis of the deposited data

How the results depend on the processing

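The calls rest on the replicate number in the model. With group alone edgeR called 0 genes and 0 members, as it did with DESeq2 size factors, other filters or protein-coding genes alone, while DESeq2's Wald test called 6 genes and 1 member. With the replicate block 756 genes and 2 members were called, with 1203 and 2 in DESeq2, 999 and 2 with DESeq2 size factors, 998 and 3 with protein-coding genes alone, and 753 and 2 with the stricter filter. CA9 changed by -5.45, -5.50, -5.50, -5.49 and -5.46 in these blocked fits and by -5.49 in DESeq2 with group alone, and was called in each. CA12 changed by -0.94, -0.97, -0.97, -0.96 and -0.95 in the blocked fits and was called in each. GPR132 turned to 0.013 with the block and 0.010 with the stricter filter too, and CA5BP1 to -0.275, -0.311 (with DESeq2 size factors) and -0.284 (stricter filter). CA13 in pair 2 turned to -0.030 on totals over protein-coding genes, which moved the median change of all genes in that pair to -0.19.

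Leaving out 1 library in turn with group alone unbalances the replicate numbers, and 0 genes were then called. CA9 ranged from -5.53 to -5.39 and CA12 from -1.31 to -0.47. CA12 against CA13 ranged from -3.72 to 0.779, turning without VEC replicate 1 or VHL replicate 2. Ranges that crossed 0 were -1.96 to 3.06 for CA13, -0.0046 to 0.351 for CA2, -1.95 to 0.988 for CA5BP1, -2.59 to 2.21 for CA5A, -0.951 to 0.947 for CA1, -0.198 to 0.463 for ATP6V1C1, -4.62 to 4.84 for GPR132, -0.632 to 2.19 for HVCN1, -1.50 to 0.038 for LRP2, -0.242 to 0.022 for SLC16A1, -2.05 to 0.395 for SLC16A3, -0.630 to 0.551 for SLC4A4 and -14.0 to 13.7 for SLC9A4. Without crossing 0, CA8 ranged from 1.52 to 3.13, ATP6V1F from -1.92 to -0.31, SLC4A7 from 0.147 to 1.375, PTPRG from 0.056 to 0.602, CUBN from -2.51 to -1.31, VHL from 0.742 to 2.04, TMCC1 from -1.33 to -0.35, PPP1R3C from -1.34 to -0.35, ORAI3 from -1.29 to -0.56, LINC02615 from -1.502 to -0.471 and MPND from -1.39 to -0.41. Of the genes nearest to CA9, POU3F3 ranged from -4.67 to -4.35, UBE2QL1 from -4.88 to -4.73 and STC1 from -4.73 to -3.96. TMEM45A ranged from -6.81 to -4.79 and DNAH11 from -6.01 to -3.51, both wider than CA9. SLC26A2 ranged from 0.652 to 0.837. The block left 1 residual degree of freedom, so its SE rests on the spread shared across genes, and without a library it has no error left. Depth limits CA8, CA11 and CA14, and both depth and overlapping genes limit CA5B. Of the fits without 1 library, CA1 was tested only in those without a replicate 1 library. The stated replicate numbers carry no label of a shared culture or day.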
